A study of Mus musculus with 4 samples.

Results

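Rods are the photoreceptors of dim light and the most numerous neurons of the mouse retina. They were described from 1 column of a table of long-read transcript isoforms by retinal cell class. Genes were taken as members when the rod column held at least 100 counts, which kept 7467 of 16702 genes: 7138 Ensembl genes and 329 loci named by position. Members held 99.7% of all rod counts. Cells of the neural retina came from papain digests of eyes of mice of the inbred C57BL6/J strain (male, wild type), and 4 libraries of single-cell cDNA were read as long nanopore reads. Of these, 2 had no enrichment (1 at postnatal day 40, the other with no age in the labels), 1 is labelled as CD73 enrichment (postnatal week 8) and 1 as CD90.2 enrichment (postnatal month 4). The protocol in the labels describes a step that depletes CD73-positive photoreceptors, so the label CD73 does not by itself say that rods were kept. Besides rods the table has columns for cones, Müller glia (MG), ganglion cells (RGC), amacrine cells (AC) and bipolar cells (BC), and none of the 6 names a library. Each class is therefore 1 pooled sample with no replicate, no test between classes was possible, and every call below is a rule of size whose intervals cover counting error only.

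A rod absorbs light in a stack of membrane discs in its outer segment. Light switches on the G protein transducin, transducin relieves the inhibition of phosphodiesterase 6, and the resulting loss of cyclic GMP closes a cation channel and lowers glutamate release at the ribbon synapse. The transcription factors CRX, NRL and NR2E3 set rod identity, NRL and NR2E3 acting together to turn on rod genes and hold back cone genes. Photoreceptors are also known for a splicing program of their own, in which small exons are included that most other cells skip.

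The rod column had 55437340 counts, the largest of the 6, against 3509890 to 48248340 in the others. A count of 3, taken as the limit that a count of 0 allows, was 0.0541 CPM (counts of a column scaled to a total of 1000000) in rods and 0.855 CPM in RGC. The 5 rod markers, Nrl, Sag, Gnat1, Pde6b and Rcvrn, were each highest in the rod column and summed to 28037 CPM there. Their sum was 55.3% of the rod level in cones, 9.77% in MG, 2.56% in BC and 0.602% in AC, and 0 counts in RGC. On a log2 scale the marker sum was 2.87 above the mean of the other 5 columns. The markers differed from each other in cones, where Pde6b was at 2.53% of its rod level, Gnat1 at 4.08%, Nrl at 4.53%, Sag at 55.5% and Rcvrn at 68.1%. In MG they ran from 0.984% (Gnat1) to 11.9% (Rcvrn). Summed markers of other types were low but present in rods: cone markers at 1.89% of their level in cones, MG markers at 2.93%, BC markers at 3.62%, AC markers at 2.31% and RGC markers at 0.652%. These sums weigh abundant genes most, such as Pcp2 with 832 of the 868 CPM of the BC list in rods. Some weaker markers stood nearer to their own class. Prkca had 6.67 CPM in rods and 31.2 CPM in BC, and Slc6a9 3.63 CPM in rods and 14.3 CPM in AC. Both were still highest in their own class. Of cells with no column, red cells were visible, their 4 globin genes summing to 2783 CPM in rods and 12344 CPM in MG. The 6 microglial markers summed to 694 CPM in rods and 1609 CPM in MG. The pigment epithelium list was at 41.5 CPM in rods, its genes running from 0 counts (Lrat) to 1997 counts (Ttr). Of the horizontal cell markers in the table, Calb1 had 664 counts in rods, Onecut1 had 1 and Onecut2 had 0. Of 55 markers of other types in the table, 29 were members. By the rule given below, 0 of these were called higher in rods and 18 lower, beside 5.02% and 7.59% of all members. The part of such RNA in the comparisons below was not tested.

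Rod transcripts were concentrated in a few genes, as were those of cones. In rods 139 genes held 50% of the counts and the 10 genes with most counts held 18.9%, while the 10 leading genes of each other class held 6.67% (AC) to 19.5% (cones). By counts, not corrected for length, the leading genes in rods included, from high to low, Gngt1 (2471088 counts), Pde6g (1662993), Pdc (1099395), Rom1 (997568), Rcvrn (814732), Unc119 (652698), Ubb (637196), Cst3 (636000) and Guca1a (582457). Most of these are photoreceptor genes, while Ubb encodes ubiquitin and Cst3 the protease inhibitor cystatin C. Ubb had 11494 CPM in rods and 8540 to 14472 CPM in the other classes, so it was abundant throughout the retina. Cst3 had 11472 CPM in rods and 11998 CPM in MG.

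Each member was compared with the other classes by the log2 ratio of its rod CPM to the mean CPM of the other 5 columns, with 1 CPM added to each, and was called higher at 2 or more (4-fold) and lower at -2 or less. Of 7467 members, 375 were higher (5.02%) and 567 lower (7.59%), and the median log2 ratio was 0.32. The 375 higher genes held 23.6% of rod counts, 9.21% of cone counts, 2.61% of MG counts, 1.81% of BC counts, 0.406% of AC counts and 0.197% of RGC counts. Cones were the next class for most of them: the highest other column was cones for 263 genes, MG for 48, BC for 31, AC for 24 and RGC for 9. Against cones alone, 145 were at least 4-fold higher, 165 between 2-fold and 4-fold, and 65 within 2-fold. A set of 100 stood 4-fold above every other column. The count of higher genes was 581 without the cone column, and 240 when only annotated isoforms were used. For comparison, at 10 CPM or more the same rule called 7.20% of genes higher in rods, 2.77% in cones, 5.56% in BC, 7.14% in AC, 9.90% in RGC and 16.4% in MG. The median log2 ratio was 0.22 for the 348 genes nearest above the member limit (within 20 counts) and 0.34 for the 429 genes nearest below it, and -0.0775 over all genes when no minimum was set.

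**Figure D1:**
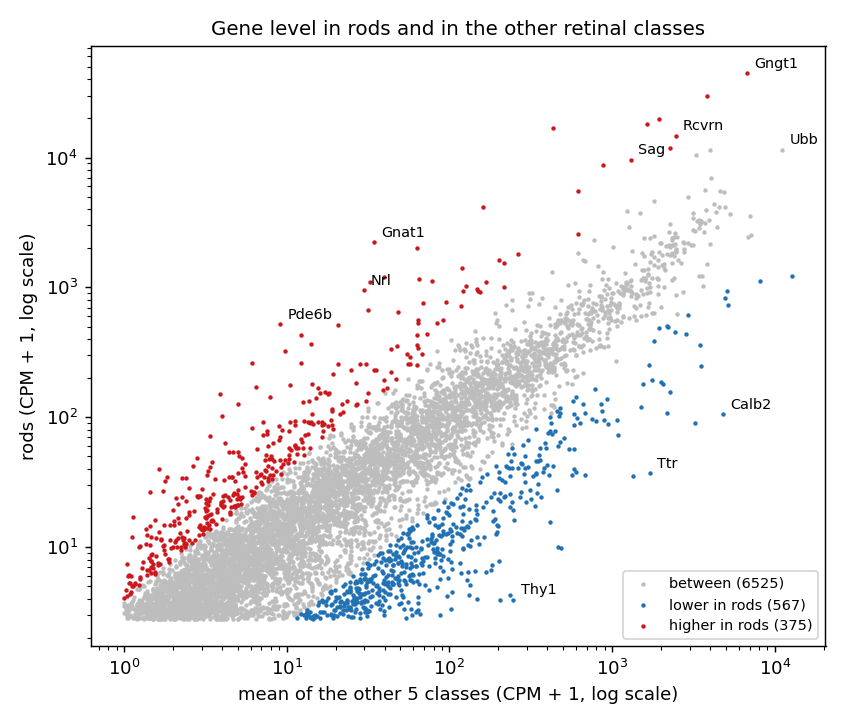
Level of each of the 7467 member genes in rods (vertical axis, CPM + 1, log scale) against the mean of the other 5 classes (horizontal axis, CPM + 1, log scale). Red points are the 375 genes at a log2 ratio of 2 or more, blue points the 567 at -2 or less and grey points the 6525 between; Gnat1, Nrl and Pde6b sit far above the grey band, and Thy1, Ttr and Calb2 far below it.

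The genes that carry the light response forward were all higher in rods. All 10 members of the phototransduction activation list passed the rule, beside 5.02% of all members, with a median log2 ratio of 4.83 against 0.32. Gnat1, the rod transducin alpha subunit, had 2221 CPM in rods, 90.6 in cones, 34.2 in BC, 21.8 in MG, 19.5 in AC and 0 in RGC, and its log2 ratio of 6.02 was the highest among members with at least 20 CPM in rods. Pde6b, a catalytic subunit of phosphodiesterase 6, had 520 CPM in rods and 0 to 15.8 CPM elsewhere (log2 ratio 5.83). Cnga1, the alpha subunit of the cyclic GMP-gated channel, had 150 CPM in rods and at most 5.20 CPM elsewhere (5.27). For all 3 the level in cones was far below that in rods. Pde6a, the partner of Pde6b, had 126 CPM in rods and 8.62 CPM in cones (4.66). Slc24a1, the sodium, calcium and potassium exchanger of the outer segment, had 886 counts in rods and at most 0.326 CPM in any other class (3.90).

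Cngb1 and Gnb1 were called higher too. Cngb1, the gene of the channel's beta subunit, had 1168 CPM in rods but 161 CPM in BC. The BC level was 13.8% of the rod level and above the 57.6 CPM of cones. Both Cngb1 isoforms in the table had 13 exons and covered chr8:95290593-95306570 on the minus strand. The same locus is known to encode short glutamic acid-rich proteins as well as the channel subunit. The Cngb1 value is thus a value of these 13-exon transcripts, and which of the products they encode was not tested. Gnb1, the transducin beta subunit, is used by many cell types for other G proteins, yet it had 2015 CPM in rods and 0 to 150 CPM elsewhere. Both Gnb1 isoforms in the table were unannotated and began at chr4:155522636, which is 31275 nt inside the annotated gene (chr4:155491361-155559269, plus strand). The Gnb1 value is thus a value of transcripts with that internal start, and transcripts from the annotated start were not analysed here. Pde6g and Gngt1, the inhibitory subunit of phosphodiesterase 6 and the transducin gamma subunit, were high in cones too. Pde6g had 29998 CPM in rods and 14968 CPM in cones, and Gngt1 44574 CPM in rods and 21831 CPM in cones. Their ratios to the mean of the other columns were 2.97 and 2.73 on the log2 scale, but only 1.00 and 1.03 against cones.

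Several genes that end the response and reset calcium were abundant in cones too. Of the 11 genes on the list, Rgs9bp had no gene entry and Gucy2e had 29 rod counts, leaving 9 members. Of these, 7 were higher, beside 5.02% of all members (median log2 ratio 2.58). Guca1b, a guanylate cyclase activating protein, had the highest ratio of these (4.71), with 4188 CPM in rods, 308 in cones, 365 in MG, 91.2 in BC, 31.3 in AC and 0 in RGC. Its neighbour in function, Guca1a, had 10507 CPM in rods and 15151 CPM in cones, and did not pass the rule (1.68). Pdc, phosducin, which binds transducin beta and gamma, had 19831 CPM in rods and 6868 CPM in cones (3.35). Sag, the arrestin of rods, had 9645 CPM in rods and 5351 CPM in cones (2.89). Rcvrn, recoverin, a calcium sensor of photoreceptors, had 14696 CPM in rods and 10014 CPM in cones (2.58). Grk1, a receptor kinase of photoreceptors, had 33.6 CPM in rods and 21.6 CPM in cones (2.41). Rgs9, which speeds up GTP hydrolysis on transducin, had 5.00 CPM in rods and 15.7 CPM in RGC (0.26), whereas its partner Gnb5 had 428 CPM in rods and 271 CPM in cones (2.76). At the position of Rgs9bp, the membrane anchor of Rgs9, a single-exon locus on the same strand (chr7:35582147-35585582, minus strand) had 15.0 CPM in rods, 4.11 in cones and at most 0.965 elsewhere (2.98). The RGC column had 0 counts for 229 of the 375 higher genes, at a floor of 0.855 CPM.

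**Figure D2:**
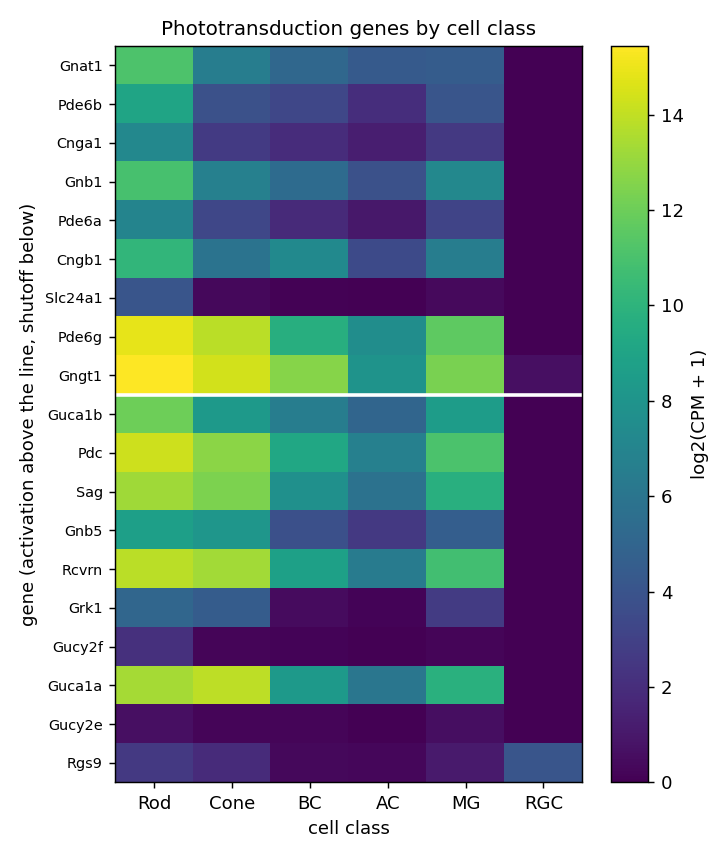
Level of 19 phototransduction genes (rows, activation above the white line and shutoff below) in the 6 cell classes (columns), coloured by log2(CPM + 1). The rod column is the brightest for every activation gene, Guca1a is brighter in cones, and the RGC column is dark except for Gngt1 (0.570 CPM) and Rgs9 (15.7 CPM).

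Of the genes that build the outer segment, 8 of 12 members were higher, beside 5.02% of all members (median 2.57). The other 4 were at similar levels in rods and cones. Rom1 and Prph2, the tetraspanins of the disc rim, had 17995 and 8731 CPM in rods and 4282 and 2784 CPM in cones. Fscn2, an actin-bundling fascin of photoreceptors, had the highest ratio, with 515 CPM in rods, 48.3 in cones, 28.4 in MG, 11.7 in BC, 5.78 in AC and 3.99 in RGC (4.65). Rp1, a microtubule protein of the axoneme, had 1120 CPM in rods and 256 CPM in cones (3.84). Prom1, which organises the membrane of nascent discs, had 73.9 CPM in rods and 28.3 CPM in cones (3.31). Impg1 and Impg2, proteoglycans of the matrix around the outer segments, were not called, with 22.5 and 28.2 CPM in rods and 22.4 and 32.0 CPM in cones. Cdhr1, the cadherin at the disc base, and Rp1l1, a relative of Rp1, had 11.4 and 11.7 CPM in rods and 9.85 and 15.2 CPM in cones.

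Carriers of lipidated proteins and ciliary genes followed the same division, with 4 of 13 members higher, beside 5.02% of all members (median 1.51). Reep6, an endoplasmic reticulum protein of rods, had 322 CPM in rods and 3.42 to 17.2 CPM elsewhere (5.06). Unc119, which carries transducin alpha, had 11774 CPM in rods and 6747 CPM in cones (2.38), and Rpgrip1, an anchor at the connecting cilium, 338 and 286 CPM (2.41). Arl13b, a ciliary GTPase, had 15.8 CPM in rods and 3.01 CPM in cones (2.81). Aipl1, the chaperone of phosphodiesterase 6, had 2304 CPM in rods and 3474 CPM in cones, and Rd3, a guanylate cyclase regulator, 732 and 734 CPM. Pde6d, which carries prenylated proteins, was spread over all classes at 259 to 1711 CPM, with 796 CPM in rods.

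Transcription factors of the rod fate had some of the highest ratios in the table. Of 13 members 7 were higher, beside 5.02% of all members (median 2.79). Nrl, the leucine zipper factor that sets rod fate, had 954 CPM in rods, 75.0 in MG, 43.2 in cones, 19.5 in BC, 6.40 in AC and 0 in RGC (5.00). Nr2e3, the nuclear receptor that holds back cone genes, had 1094 CPM in rods, 75.2 in MG, 56.0 in cones, 22.3 in BC, 4.06 in AC and 0 in RGC (5.07). Samd11 and Samd7, polycomb-associated repressors of photoreceptors, had 170 and 40.5 CPM in rods and 11.6 and 9.58 CPM in cones. Rorb, a nuclear receptor upstream of Nrl, had 92.1 CPM in rods and 7.25 to 12.7 CPM elsewhere (3.04). Crx, the homeodomain factor of both photoreceptor types, had 182 CPM in rods and 98.9 CPM in cones (2.79). Otx2 and Neurod1, used by photoreceptors and bipolar cells, were not called: Otx2 had 43.4 CPM in rods and 48.3 CPM in BC, and Neurod1 404 CPM in rods, 561 in cones and 292 in BC. Esrrb, a nuclear receptor of rods, stood just under the limit (log2 ratio 2.00 after rounding) with 3.81 CPM in rods and at most 0.815 CPM elsewhere, since the added 1 CPM lowers the ratio of weak genes.

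Because NRL and CRX bind near the starts of rod genes, the windows upstream of the starts of member genes were searched for a core of each factor's site. TGCTGA, the core of the NRL site, and TAATCC, the core of the CRX site, were searched on both strands (TCAGCA and GGATTA on the other strand) in the 250 bases before each RefSeq start (GRCm38.p6). The start lay within 100 nt of the start of the main rod isoform for 4566 members. TAATCC was present in 26 of 206 higher genes (12.6%, exact 95% interval 8.41 to 17.9%), in 6.09% of the 4566 matched members and in 6.25% of all 32851 windows. TGCTGA was present in 15.0% of the higher genes (10.5 to 20.7%), 12.2% of members and 16.1% of all windows. Both sets of letters stood in 3.88% of the higher genes and 0.723% of members. The 58 higher genes with at least 100 CPM had TAATCC in 22.4% (12.5 to 35.3%) and TGCTGA in 19.0% (9.87 to 31.4%). A match is a description of letters and not a binding site, and no test was made. Of the leading rod genes with a RefSeq start within 100 nt, Pde6b had 1 match in 150 bases and Samd11 had 1 of each. The 150 bases upstream of both starts are shown with the matches in capitals because they show how close the letters lie to the start. Pde6b is at chr5:108388223-108388372 on the plus strand and Samd11 at chr4:156255343-156255492 on the minus strand, both in GRCm38.p6.
Pde6b upstream: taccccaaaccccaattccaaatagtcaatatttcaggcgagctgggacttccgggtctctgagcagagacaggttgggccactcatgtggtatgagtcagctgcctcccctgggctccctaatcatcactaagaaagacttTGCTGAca
Samd11 upstream: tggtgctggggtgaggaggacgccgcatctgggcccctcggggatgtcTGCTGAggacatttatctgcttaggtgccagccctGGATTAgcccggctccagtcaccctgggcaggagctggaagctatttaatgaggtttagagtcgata
In Pde6b the TGCTGA lies at the end of the window, next to the start. Samd11 holds TGCTGA followed by GGATTA, the reverse strand form of TAATCC, and the 2 do not overlap. The windows of Cnga1, Prph2 and Nr2e3 held neither in these 150 bases. Of leading genes whose RefSeq start lay farther off, Sag (132 nt) held 1 GGATTA, and Nrl, Gnb1, Susd3 and Rom1 held neither.

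Of 16 synaptic members, 2 were higher and 1 lower, beside 5.02% and 7.59% of all members, and their median log2 ratio was 1.04 against 0.32 over all members. Cplx4, a complexin of ribbon synapses, had 1027 CPM in rods, 396 in cones and 162 in BC (3.02), and Cabp4, a calcium channel regulator, 716 CPM in rods and 489 CPM in cones (2.61). The other complexin of the retina, Cplx3, went the other way, with 2.83 CPM in rods against 42.2 in cones, 49.5 in AC and 31.7 in BC (-2.78). Syp, synaptophysin, was not called, with 95.4 CPM in rods and 397 and 421 CPM in cones and BC (-0.85). The listed genes Bsn, Pclo, Rims1 and Elfn1 had under 100 rod counts.

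In the ion transport list, 4 of 10 members were higher and 1 lower, beside 5.02% and 7.59% of all members (median 1.05). Kcnj14, an inward rectifier potassium channel, had 261 CPM in rods and 0 to 11.5 CPM elsewhere (5.42), the third highest ratio of the abundant genes. Kcnv2, a modulatory potassium channel subunit of photoreceptors, was not called and had 23.1 CPM in rods and 93.0 CPM in BC (-0.48). The beta subunits of the sodium pump differed from each other. Atp1b1, a beta subunit, had 9.16 CPM in rods, 3.07 in BC, 3.83 in cones, 12.9 in MG, 281 in AC and 368 in RGC (-3.73), so its low ratio rested on AC and RGC, while Atp1b2, another beta subunit, had 84.6 CPM in rods and 7.01 to 127 CPM elsewhere (0.52). Among 6 retinoid members, 3 were higher, beside 5.02% of all members. These were Rdh12 and Dhrs3, which reduce retinal to retinol, at 650 and 85.2 CPM in rods, and Abca4, the retinoid flippase of the discs, at 9.43 CPM. Rdh12 had 184 CPM in cones, and Dhrs3 0 to 15.7 CPM in the other classes. Rbp3, the retinoid carrier of the matrix, was not called, with 71.3 CPM in rods and 106 CPM in cones.

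Energy metabolism genes did not stand apart as a list. Of 24 members, 1 was higher and 1 lower, beside 5.02% and 7.59% of all members. The median of 0.37 was close to the 0.32 of all members. The higher gene was Nxnl2, which encodes a thioredoxin-like rod-derived cone viability factor, with 1530 CPM in rods and 841 CPM in cones (2.82). The lower gene was Pfkm, a phosphofructokinase, with 3.12 CPM in rods and 11.4 to 28.6 CPM elsewhere (-2.28), while its paralogue Pfkl had 302 CPM in rods. Ldha, lactate dehydrogenase A, had 3893 CPM in rods and 738 to 2579 CPM elsewhere (1.66). Ldhb, the other subunit, had 217 CPM in rods, 832 in AC and 1269 in MG (-1.60). The creatine kinase Ckb had 2423 CPM in rods, 10342 in cones and 12767 in BC (-1.50). Bsg, basigin, the partner of lactate transporters, had 1230 CPM in rods and 9946 CPM in MG (-1.48).

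Rod nuclei are known for an inverted arrangement, with heterochromatin in the centre and little lamin A or lamin B receptor. Both of those genes were under the member limit: Lmna had 10 and Lbr 16 counts in 55437340. They were low in every column, Lmna at 0.180 CPM in rods and 0 to 2.45 CPM elsewhere, and Lbr at 0.289 CPM in rods and 0 to 0.958 CPM elsewhere (log2 ratio 0.03). Of 12 members of the nuclear list, 1 was higher and 1 lower, beside 5.02% and 7.59% of all members. Hmgb2, a chromatin protein, was higher, with 773 CPM in rods and 213 CPM in cones (3.03). Cbx5, a heterochromatin protein, was lower (-2.07), with 12.8 CPM in rods, 15.8 in MG, 17.1 in cones, 21.4 in BC, 87.8 in RGC and 143 in AC. Lmnb1 and Lmnb2, the B-type lamins, had 2.62 and 6.17 CPM in rods.

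Among the 10 splicing regulators that were members, Msi1 and Celf1 were higher in rods, beside 5.02% of all members. Msi1, Musashi 1, which promotes photoreceptor exons, had 28.3 CPM in rods, 16.4 in cones and 0.285 to 3.23 elsewhere (2.41), and Celf1 had 57.6 CPM in rods and 27.5 CPM in cones (2.31). Srrm3, a regulator of small neuronal exons, had 9.87 CPM in rods and 0.326 to 7.51 CPM elsewhere (1.40). Several neuronal regulators were low in rods, cones and BC and high in AC and RGC. Rbfox1 had 0.397 CPM in rods, 0.483 in BC, 46.4 in RGC and 121 in AC. Rbfox2 had 1.43 CPM in rods, 1.93 in BC, 107 in RGC and 77.1 in AC, and Elavl4 0.722, 0.483, 40.7 and 26.3 CPM in the same order. These 3, with Rbfox3, Elavl2 and Elavl3, had under 100 rod counts and so were not members. In cones Rbfox1 had 0.274 CPM, Rbfox2 1.64 CPM and Elavl4 0.137 CPM.

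**Figure D3:**
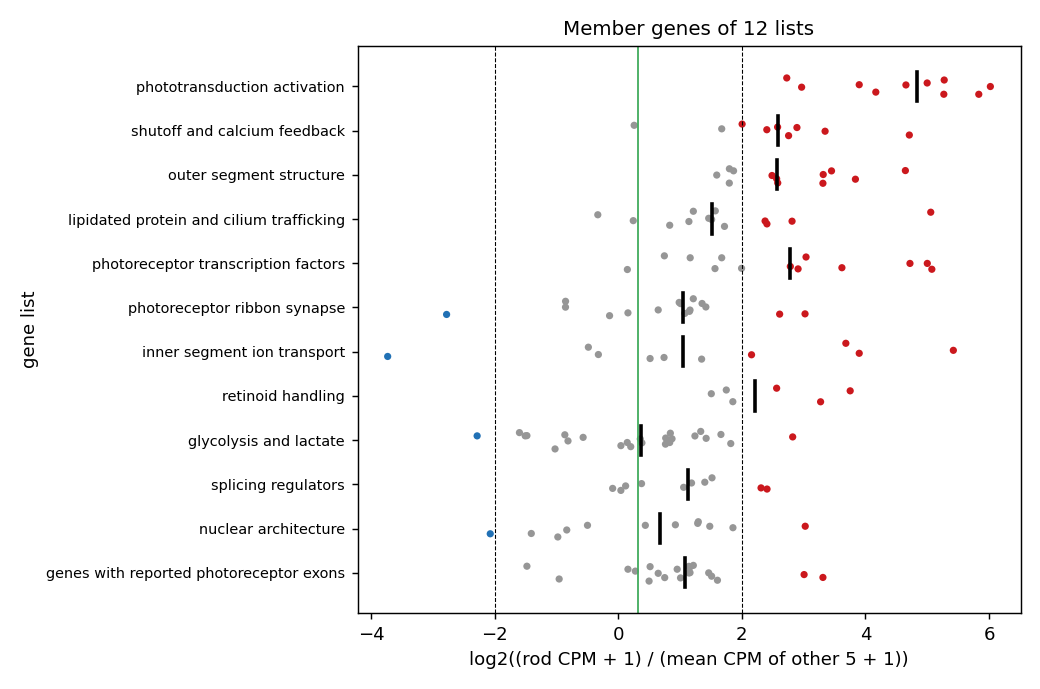
Log2 ratio of rods to the mean of the other 5 classes (horizontal axis) for the members of 12 gene lists (rows), 1 point per gene. Red points are at 2 or more and blue points at -2 or less (dashed lines), black bars are list medians and the green line is the median of all members (0.32); the activation list lies wholly beyond the right dashed line and the glycolysis list is centred on the green line.

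Several of the highest ratios belonged to genes outside the visual cascade. Sh2d1a, an adaptor better known from lymphocytes, had 432 CPM in rods, 24.1 in MG, 19.8 in cones, 10.3 in BC, 2.24 in AC and 0 in RGC (5.14). Susd3 had 1200 CPM in rods and 0.285 to 79.0 CPM elsewhere (4.92). Pdia5, a disulfide isomerase, had 369 CPM in rods and 29.4 CPM in cones (4.71), Aqp1, a water channel, 102 and 6.57 CPM (4.69), and Ttll11, a tubulin polyglutamylase, 71.3 and 6.71 CPM (4.41). With annotated isoforms only, Pdia5 was at 1.58. Ttll11 was at 0.00, the value that a gene with no annotated counts takes, so this is not a measured equality. Csrp3, a muscle LIM protein, had 39.3 CPM in rods, 1.48 in BC, 1.37 in cones and 0.415 in AC (4.61). Among 84 long noncoding members, 11 were higher, beside 5.02% of all members. Vax2os, antisense to Vax2, had 260 CPM in rods and 0 to 24.6 CPM elsewhere (4.41), and Malat1, a nuclear RNA, 5269 counts in rods and 1.71 to 26.5 CPM elsewhere (5.39-fold, 2.37). Reads of an antisense gene and its partner may not be separable, since the strand handling of the counting is not given in the sources used here. Of 329 members that are loci named by position, 31 were higher, beside the same 5.02%. One lay inside Cnga1 (chr5:72642092-72642752, 33.7 CPM in rods, at most 2.77 elsewhere), and another overlapped Ankrd33 (chr15:101115755-101120040, 53.6 and 14.2 CPM in rods and cones). Both were on the strand of the gene. The gene entry of Ankrd33 itself was not called, with 460 CPM in rods and 660 CPM in cones (1.68).

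The genes lowest in rods were markers of the other classes. For the 567 lower genes the highest column was MG for 195, RGC for 138, AC for 116, BC for 87 and cones for 31. Thy1, a surface protein of ganglion cells that is also called CD90, had 2.94 CPM in rods, 910 in RGC and 317 in AC (-5.97). Nrn1 (-5.63), Calb2 (-5.51), Tppp3 (-5.24) and Sncg (-5.17) were highest in RGC, at 2301, 23012, 6267 and 15741 CPM. Without the RGC column these 4 were at -1.53, -1.08, -1.56 and -0.24. Npy (-5.76), Cxcl14 (-5.53) and Tac1 (-5.22), secreted peptides and a chemokine, were highest in AC, and Cxcl14 was at -1.14 without that column. Mgp (-5.70) and Ttr (-5.53) were highest in MG, and Ttr is a pigment epithelium marker at 8443 CPM there. Without the MG column Mgp was at -1.86 and Ttr at 0.58. The lowest ratios thus followed 1 or 2 columns each. Cone markers such as Opn1mw, a cone opsin, had 246 CPM in rods and 17489 CPM in cones (-3.84).

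Isoform choice was then compared within genes, independently of the level of the gene. A gene entered with 2 or more isoforms and 100 counts in rods and in at least 2 other classes, and was called when an isoform's share of the gene's counts in rods was at least 30 percentage points above its mean share in those classes. Of 3601 genes, 196 were called (5.44%), and in 411 (11.4%) the most abundant isoform differed from that of the other classes. Both counts depended on the AC column: without it 2607 genes could be compared and 83 were called, with 218 changes of the most abundant isoform. Without the BC column the latter was 252. In the 196 genes the rod isoform had a median share of 71.2% in rods and 24.5% in the mean of the others. By class its median share was 60.2% in cones, 26.1% in BC, 18.1% in MG, 13.4% in AC and 0.619% in RGC, each over the genes with 100 counts there. Cones were thus nearest to rods: of 77 called genes with 100 cone counts, 30 were within 10 percentage points of rods, 33 lay 10 to 30 below, 12 lay at least 30 below and 2 were more than 10 above. Of the 196, 13 were also called higher as genes, and 120 of all 3601 genes compared were higher. Another 13 were called lower, beside 7.59% of all 7467 members, which is a wider set than the 3601.

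A different first exon was the most frequent kind of change. Comparing the rod isoform with the isoform it displaced, the first exon differed in 84 of 196 genes (42.9%, exact 95% interval 35.8 to 50.1%), against 17.6% of all 3601 genes compared in the same way. The last exon differed in 43 (21.9%, against 11.1% of all compared genes), an internal exon was included in rods in 43 (21.9%) and an internal exon was skipped in 27 (13.8%), and a gene could show several kinds. Over all compared genes the included and skipped shares were 22.5% and 21.7%. Retained introns were seen in 6 genes, 3.06% against 5.22% of all compared genes. Of the included exons 7 of 56 were 27 nt or shorter, and of the skipped exons 1 of 27. Of the 56, 43 were coding in GENCODE M21, and 21 of these had a length that is a multiple of 3.

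Some exons that rods included are shown in capitals between 12 bases of each neighbouring exon, to give their length and position. Their sequences are on the transcript strand and taken from GENCODE M21 (GRCm38). Atp1b2, the sodium pump subunit above, has 2 (chr11:69602304-69602330 and chr11:69601924-69601944, minus strand), of 27 and 21 nt. Ttc8, the Bardet-Biedl syndrome protein BBS8 of the ciliary BBSome, has a 30-nt exon (chr12:98937120-98937149, plus strand). Sgce, a sarcoglycan, has a 27-nt exon (chr6:4690469-4690495, minus strand), Bnip2 a 36-nt exon (chr9:70004306-70004341, plus strand) and the clock factor Arntl a 21-nt exon (chr7:113281402-113281422, plus strand).
Atp1b2 27 nt: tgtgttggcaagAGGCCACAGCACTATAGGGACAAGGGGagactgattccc
Atp1b2 21 nt: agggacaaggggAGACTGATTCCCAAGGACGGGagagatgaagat
Ttc8 30 nt: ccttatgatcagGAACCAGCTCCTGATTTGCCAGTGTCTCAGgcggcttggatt
Sgce 27 nt: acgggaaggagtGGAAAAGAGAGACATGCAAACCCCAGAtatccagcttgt
Bnip2 36 nt: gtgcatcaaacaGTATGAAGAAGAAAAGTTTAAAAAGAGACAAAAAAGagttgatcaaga
Arntl 21 nt: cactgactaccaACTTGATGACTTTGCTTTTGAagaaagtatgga
These 6 exons were chosen after their values were seen. Each has a length that is a multiple of 3, as had 29 of all 56 included exons and 12 of 27 skipped exons.

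The Atp1b2 exons separated photoreceptors from AC and RGC, with BC between. Of counts of isoforms that span the 21-nt exon, 97.6% included it in rods (4578 of 4692, exact 95% interval 97.1 to 98.0%), 94.0% in cones (92.0 to 95.6%), 10.1% in BC (8.28 to 12.2%), 0.490% in AC (30 of 6124) and 0 of 110 in RGC (0 to 3.30%). The 27-nt exon was included in 4644 of 4692 counts in rods, 99.1% in cones, 29.9% in BC and 3.61% in AC. So although Atp1b2 was not called higher as a gene, its rod transcripts were nearly all of a form that AC lacked, and this rod isoform was itself unannotated. Ttc8 behaved alike: its 30-nt exon, known as a retina exon of BBS8, was included in 98.9% in rods, 97.4% in cones, 39.1% in BC, 31.4% in MG and 8.83% in AC. The Sgce exon was included in 93.4% in rods and 98.4% in cones, and in 60.6% in BC, 31.3% in AC and 29.1% in RGC, but also in 85.5% in MG. The Bnip2 exon was at 85.2% in rods, 85.8% in cones, 89.7% in MG, 29.0% in BC and 9.89% in AC. These 2 exons were therefore shared by photoreceptors and MG. The Arntl exon was at 82.7% in rods, 76.9% in cones (40 of 52 counts), 53.1% in BC and 32.2% in AC.

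Among larger exons, the place of MG differed from gene to gene. Bsg has an exon of 348 nt that encodes the additional immunoglobulin domain of the photoreceptor form, basigin-1, the receptor of the rod-derived cone viability factor. It was included in 85.8% in rods (58491 of 68209 counts), 87.2% in cones, 62.9% in BC, 19.5% in AC, 2.39% in MG and 0.270% in RGC. MG, with the highest Bsg level of the table, used the form without it, and rods, with a level in the lower part of the range, the form with it. A 60-nt exon of Tpd52l2 was included in 75.2% in rods, 75.5% in cones, 53.1% in BC, 24.1% in MG, 15.3% in AC and 4.40% in RGC. A 108-nt exon of Gphn, gephyrin, was included in 77.5% in rods (227 of 293 counts), 1.00% in AC and 5.01% in BC, but in 26 of 29 MG counts. In Sumo3 rods stood apart from cones: a 108-nt exon was at 48.9% in rods (47.9 to 49.8%), 18.8% in cones (16.8 to 20.9%), 4.55% in BC, 3.61% in MG, 0.723% in AC and 0 of 2040 in RGC.

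Exons could also be exchanged or left out. Acsl6, an acyl-CoA synthetase of polyunsaturated fatty acids, has a pair of mutually exclusive exons of equal length, 78 nt (chr11:54336936-54337013 and chr11:54337071-54337148, plus strand), shown for comparison with the same flanking bases.
Acsl6 upstream exon: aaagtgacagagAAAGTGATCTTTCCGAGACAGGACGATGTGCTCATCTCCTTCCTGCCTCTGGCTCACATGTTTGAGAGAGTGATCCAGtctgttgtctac
Acsl6 downstream exon: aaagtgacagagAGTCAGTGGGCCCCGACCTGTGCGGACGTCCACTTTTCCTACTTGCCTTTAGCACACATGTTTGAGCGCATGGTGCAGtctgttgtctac
Rods used the upstream exon in 98.6% of counts, BC in 98.5%, cones in 92.7% and AC in 81.6%, whereas MG used it in 7.38% (20 of 271). The difference lay between MG and the neurons rather than between rods and the rest. A 12-nt exon of Zmynd8, a chromatin reader, was included in 28.5% in rods, 57.1% in cones, 63.2% in BC and 90.3% in AC. Golga4, a Golgi tether, skipped an 87-nt exon in rods, where inclusion was 55.4% against 80.0 to 92.2% in cones, BC, AC and MG.

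**Figure D4:**
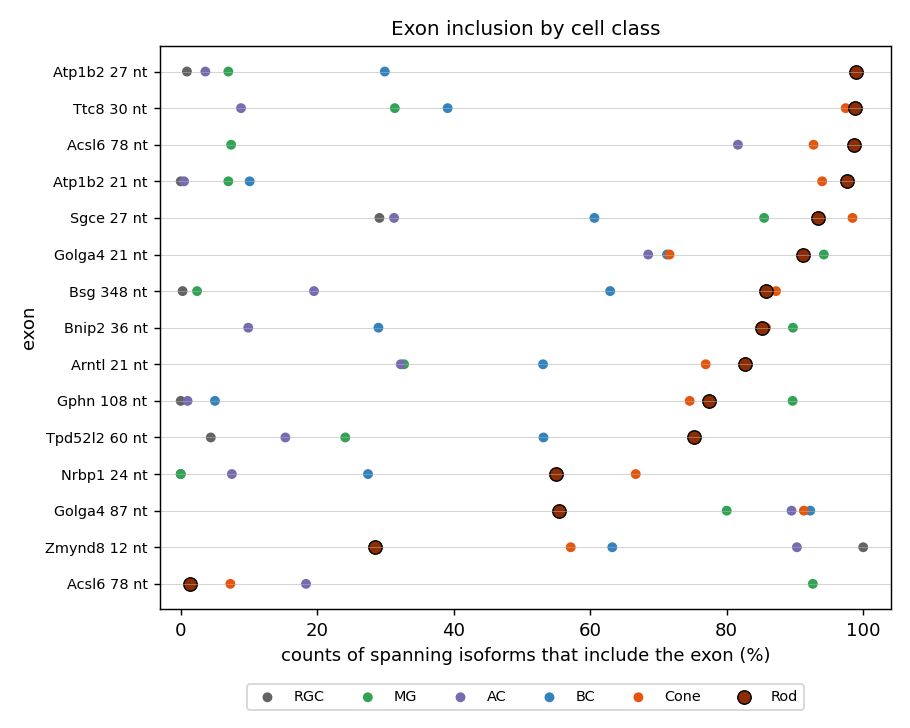
Share of the counts of spanning isoforms that include an exon (horizontal axis, percent) for 15 exons of the genes called (rows, with their length), 1 point per cell class with at least 20 spanning counts. Rods (large points) and cones lie together at the right for most included exons, far from AC and RGC at the left, and rods lie left of every other class plotted for Zmynd8 and the Golga4 87-nt exon and at 1.41% for the downstream Acsl6 exon.

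Starts used to different extents in rods and cones were seen in several genes. For this the 31 called genes with 100 counts in all 6 classes were read (of 1220 such genes), a set chosen after its values were seen. Faim, an inhibitor of apoptosis, was also higher as a gene (1630 CPM in rods, 172 to 261 CPM elsewhere). Its isoform starting at chr9:98991831 held 83.0% in rods, 50.2% in MG, 32.1% in cones, 28.3% in BC, 4.58% in AC and 0.166% in RGC, while the isoform starting at chr9:98986373, with 6 exons, held 94.3% in AC and 99.8% in RGC. The downstream start was thus used most in rods and least in RGC. Prkacb, a catalytic subunit of protein kinase A, used its most upstream start in 67.0% in rods and 6.82 to 22.6% in BC, AC, cones and MG, and Snx10, a sorting nexin, one start in 72.7% in rods, 64.4% in cones and 1.2 to 15.5% in AC, BC and MG.

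**Figure D5:**
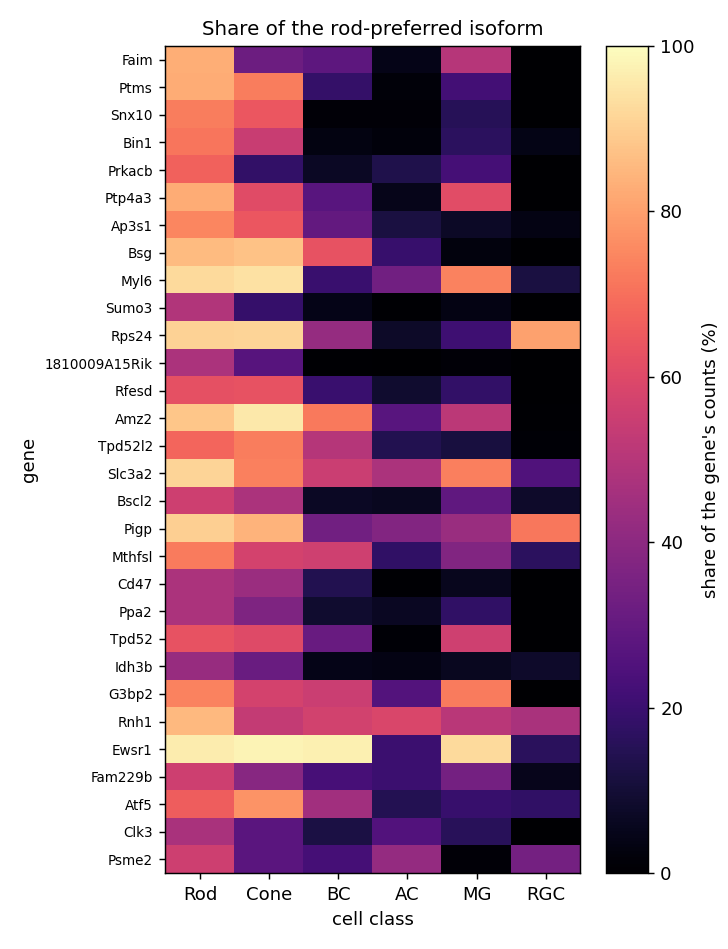
Share of the gene's counts held by the rod-preferred isoform (colour, percent) in the 6 classes (columns) for 30 of the called genes with at least 100 counts in every class (rows, ordered by the difference). Rods and cones are the light columns, with Faim, Prkacb and Sumo3 darker in cones than in rods, and RGC is near black for most genes but not for Rps24, Pigp, Rnh1 and Psme2.

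The largest differences in share lay in less abundant genes and rest on fewer classes. Pnrc1, a nuclear receptor coactivator, was first at 83.2 percentage points: 1 of its 2 starts held 90.9% in rods (636 of 700 counts) and 6.81% in AC, 14.7% in BC and 1.55% in RGC. In cones it held 73.7% (56 of 76 counts) and in MG 79.5% (66 of 83 counts), too few to enter the mean. It was followed by Ank3 (78.9), March1 (76.7), Ptprg (74.9), Gphn (74.5), Slc25a25 (71.5), Atp1b2 (71.4), Akap6 (69.2), Xrcc3 (68.7) and Pnkd (68.2). Of these, Gphn, Slc25a25 and Atp1b2 included an internal exon, and the 36-nt exon of Slc25a25, a mitochondrial carrier, was at 84.6% in rods, 36.8% in AC and 91.5% in BC (86 of 94 counts). Ank3, ankyrin G, had 212 of 267 rod counts on an unannotated 3-exon transcript, against 1 of 103 in AC and 0 of 209 in BC. That transcript also held 22 of 23 counts in cones and 21 of 37 in MG. For 102 of the 196 genes only 2 other classes could be compared, which were AC and BC for 6 of these 10. Genes on the lists with a called isoform included Atp1b2, Rorb, Ttc8, Bsg, Casz1, Hk1 and Cacna2d4. Rorb, the Nrl regulator above, used its upstream start in 0.686% of rod counts, 56.9% in BC and 91.8% in AC, and the larger of 2 isoforms with the downstream start held 68.0% in rods, 21.7% in BC and 5.52% in AC. Casz1, a zinc-finger factor of rod fate and nuclear organisation, had 90.5% of rod counts on a 3-exon processed transcript. That transcript held 88.6% in cones but 3.14% in AC. It also held 95.8% in BC, where the gene's 3.27 CPM was under the 3.45 CPM that 100 counts make. BC therefore did not enter the mean. Of the genes with exons reported for photoreceptors, 11 could be compared and 4 were called, beside 5.44% of all genes compared.

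Isoform choice could be read in only some of the phototransduction and transcription factor genes. Rcvrn, Pde6b, Gngt1, Guca1a, Guca1b and Crx each had 1 isoform in the table, so they could show none. Gucy2f, Rgs9 and Slc24a1, with 13, 6 and 4 isoforms, are not described here. In Nrl and Pdc the mix of the other columns was near that of rods. The main Nrl isoform held 56.8% in rods and 55.2 to 63.9% in AC, BC, cones and MG, and the main Pdc isoform 66.9% in rods and 63.3 to 70.3% elsewhere. Whether these counts in AC, BC and MG come from rods was not tested. Sag differed between the photoreceptors: an unannotated 16-exon isoform (chr1:87803812-87845158) held 56.7% in rods (exact 95% interval 56.5 to 56.8%) and 37.6% in cones, and the annotated isoform that starts at chr1:87803922 held 29.2% in rods and 45.8% in cones.

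Unannotated isoforms held 7.47% of the rod counts of member genes and 8.48% of those of the genes higher in rods. Counted by gene, the most abundant rod isoform was unannotated in 1654 of 7467 members (22.2%), and in 1325 of 7138 Ensembl genes (18.6%). Those with the most counts were of Cst3 (636000), Sag (302989), Hbb-bs (116878), Gnb1 (91881) and Agpat3 (70220). Hbb-bs encodes a beta globin of red cells, so 1 of the 5 does not describe a rod. Agpat3, which makes phospholipids of polyunsaturated fatty acids, had 90.0% of its rod counts on the unannotated 9-exon isoform (chr10:78273614-78307550) and 88.3 to 94.2% in AC, BC, cones and MG. Transcripts typed as protein coding held 89.8% of rod counts and 91.8 to 93.2% in the other classes, and retained-intron transcripts 0.533% in rods and 0.186 to 0.421% elsewhere. Rsrp1 was a larger source than any gene named here, with 48577 rod counts on a retained-intron transcript, 47.3% of the gene and 10.8 to 49.7% elsewhere. Of the rod genes above, Unc119 and Nr2e3 were among the sources, with 17377 and 7806 rod counts. The Unc119 transcript held 2.66% of the gene in rods and 0 to 1.72% elsewhere. The Nr2e3 transcript was not particular to rods, at 12.9% in rods, 15.4% in cones, 14.8% in BC, 12.8% in AC and 3.69% in MG.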

How the data were processed

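The authors deposited raw counts of transcript isoforms, summed by them over the cells of each of 6 classes. Per the labels' protocols, single-cell cDNA of the 4 libraries was sequenced as long nanopore reads, and mm10 is named in the submitters' processing notes. The deposited annotation gives start and end coordinates of isoform models, with FLAIR as its source per the file contents. Whether counts are reads or molecules, which library entered each column, how cells were typed and doublets treated, and how isoforms were filtered are not given in the sources used here. Identifiers were split at the last separator, isoforms summed per gene and columns scaled to CPM over a total of 1000000. A gene's level is the sum of the deposited isoforms only. Models cover isoforms with a rod count. Symbols and exons were taken from GENCODE M21, of which 94.4% of 122601 junctions matched, and promoters from RefSeq GRCm38.p6 for 5759 members with a start on the same strand.

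Members, gene lists and rules were chosen with earlier results of these data known. Named genes were the 5 markers, the 10 genes with most rod counts, the 20 highest ratios at 20 CPM or more, the 10 lowest, the 10 largest share differences, the 5 leading unannotated isoforms and the members of 12 lists; other genes were chosen after their values were seen. Some genes that these rules name are not reported here. Shares carry exact Clopper-Pearson 95% intervals. The planned tests between libraries were not possible, and 0 columns were left unused. The rules were tested on simulated data. Alternatives covered minimums, pseudocounts, scalings (trimmed mean of M-values with edgeR 4.0.16, median of ratios), the reference and left-out columns. Python 3.11.15, pandas 2.3.3, scipy 1.17.1 and R 4.3.3 were used.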

Additional observations from a re-analysis of the deposited data

How the results depend on the processing

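The counts of calls moved with the settings. Of the called log2 ratios of named genes, 23 values were under 2 in size in an alternative. With annotated isoforms only, Pdia5 was at 1.58, and Ttll11 and Gnb1 at 0.00. A ratio of 0.00 is what a gene left with no counts takes, so it is not a measured equality. Against the highest other column Pdc was at 1.53, Rcvrn at 0.55 and Unc119 at 0.80. Of 468 recomputed log2 ratios of named genes, 4 changed sign in a gene that had been called. With the median of the other columns Ttr was at 0.84, Calb2 at 1.76 and Sncg at 1.33, and without the MG column Ttr was at 0.58. Sign changes of named genes that were not called are outside this count. For example, Ubb, Cst3 and Guca1a went from 0.05, 1.52 and 1.68 to -0.33, -0.06 and -0.53 against the highest other column. The 10 named genes of the isoform comparison were chosen for the largest share differences, so values above 30 percentage points were likely in advance. Of 87 recomputed share differences of these genes, 0 went under 30, and the lowest was 43.4. A setting in which a gene could not be compared gives no value, and one that moves only the cutoff leaves the difference unchanged. The 87 values therefore do not test the other called genes.

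Genes higher in rods numbered 718 and 121 with 0.1 and 10 CPM added, 638 against the median and 100 against the highest of the other columns, 581 without the Cone column, 1752 at a log2 ratio of 1 and 240 with annotated isoforms only. Genes lower in rods numbered 983, 146 and 1267 at minimums of 20, 1000 and 0 rod counts, 278 with 10 CPM added, 209 against the median, 1093 against the highest column and 1046 at a log2 ratio of 1. With 10 CPM added all 121 and 278 were among the 375 and 567. Of the genes on the lists, 48 were higher, and 74, 21 and 90 against the median, against the highest column and at a log2 ratio of 1. The log2 ratio of the summed rod markers, 2.87, was 2.60 by the median of ratios, 5.29 against the median, 0.85 against the highest column, 4.95, 2.55, 2.77, 2.56 and 2.61 without the Cone, RGC, MG, AC and BC columns, and 2.78 with annotated isoforms. The median of ratios lowered the median of all members by 0.149 to 0.166 and called 315 genes higher, all among the 375.

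Genes with a preferred isoform numbered 550 and 73 at minimums of 20 and 500 counts, 31 with all 5 other classes, 107 with annotated isoforms, 468 and 37 at 20 and 50 percentage points and 83 without the AC column. Changes of the most abundant isoform numbered 1033 and 171 at those minimums, 86 with all 5 classes, 207 with annotated isoforms, and 218 and 252 without the AC and BC columns. Genes with an internal exon event fell from 67 to 33 at 500 counts and 11 at 50 percentage points. Fewer classes or counts also change which genes can be compared. The unannotated share was 6.39% for isoforms with 2 or more exons, 6.79% for genes with 1000 or more rod counts and 26.4% as a mean over genes. Leaving out the MG, AC or BC column at the gene level, and the RGC, AC, MG or BC column for isoforms, was chosen after seeing the data. No library could be left out, since each column pools them. No paired analysis was possible because each class is a pooled column without replicate numbers. In the shallow RGC column, 100 counts are 28.5 CPM, which limits isoform comparisons there.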
